A study of Mus musculus with 16 samples.

Results

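The VEGF ligands and receptors are a family of 9 genes among the 55487 genes of the deposited count matrix, taken by their symbols. They hold 4 ligands (Vegfa, Vegfb, Vegfc and Pgf), 3 receptor tyrosine kinases (Flt1, Kdr and Flt4) and 2 neuropilins (Nrp1 and Nrp2), and each symbol had 1 identifier. All 9 passed the filter on low counts, at least 10 counts in at least 4 mice, which 18609 genes passed in all. The family was selected on the comparison of evacetrapib with vehicle in these same mice, whose values were already known. The evacetrapib values of the 9 genes, over all mice and within each genotype, are therefore given as a description, with no test. The comparisons of the genotypes, the difference of the evacetrapib effect between genotypes, and the associations with marker scores within groups were not used to choose the members, and these were tested.

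Bulk brain RNA of 16 female mice, enriched for poly(A), was sequenced as directional read pairs, with 4 mice in each of 4 groups. Every mouse was heterozygous for a human CETP transgene under the human gene's own promoter (CETPtg), which supplies a plasma lipid transfer protein that mice lack, and the APPtg/CETPtg littermates had in addition a human APP transgene with the Swedish and Indiana mutations, driven in neurons by the Thy1 promoter. All were fed a diet with 1% cholesterol from 11 weeks of age and were injected daily for 11 weeks with 30 mg/kg evacetrapib, an inhibitor of CETP, or with its vehicle of Kolliphor EL and glucose. The study froze brain tissue of non-perfused mice and fixed brain hemispheres of perfused mice. Its RNA methods name only bulk brain tissue, so RNA of blood cells can be present. The labels give no age at collection. The study's methods place it after the behavioural tests, at the end of the treatment. The groups were CETPtg vehicle (mice S1 to S4), CETPtg evacetrapib (A to D), APPtg/CETPtg vehicle (S5 to S8) and APPtg/CETPtg evacetrapib (E to H).

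VEGF signalling guides the growth, survival and permeability of blood and lymph vessels. Secreted ligand dimers bind receptor tyrosine kinases that sit mainly on endothelial cells, and neuropilins serve as co-receptors that also bind class 3 semaphorins, the guidance cues of growing axons. In the brain the ligands come largely from glia, neurons and perivascular cells, whereas the receptors line the vessels, so a bulk sample mixes the senders with the receivers.

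Counts summed over genes ranged from 21391335 to 55453789 in a mouse (median 30988142.5). The totals ran from 28626139 to 37709734 in CETPtg vehicle, from 33684250 to 46800787 in CETPtg evacetrapib, from 21866883 to 55453789 in APPtg/CETPtg vehicle and from 21391335 to 25854334 in APPtg/CETPtg evacetrapib mice. APPtg/CETPtg libraries were thus shallower than the CETPtg libraries, except for S8, the deepest of all. Of the members, Vegfc had the lowest count of a mouse, 34, followed by Pgf with 43 and Flt4 with 75, whereas Vegfa, Vegfb and Flt1 had more than 1000 counts in each mouse. On the index plate the genotypes sat in separate columns and the treatments in separate rows, so plate position and group cannot be told apart. Levels below are CPM, the counts of a gene scaled to a common library total after adjustment of library sizes by TMM, and a comparison of levels between genes divides them by the kb of exon sequence of each gene.

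Some libraries stood apart from the rest of their group before any member was compared. S6 (APPtg/CETPtg vehicle) had the lowest summed level of the pericyte markers, 182 CPM, and of the smooth muscle markers, 29.0 CPM, among all mice, and the highest of the neuron markers, 9216 CPM. S4 (CETPtg vehicle) and S8 (APPtg/CETPtg vehicle) had more of the 24 endothelial markers than the other mice of their group, with sums of 563.5 and 558.1 CPM. S8 also had the most RNA of choroid plexus epithelium, 477 CPM over 11 markers against 16.7 CPM in F, the lowest mouse. E (APPtg/CETPtg evacetrapib) held pituitary RNA, 853 CPM over 7 markers, against 20.6 CPM or less in each other mouse. Values without S6 or another single mouse are given beside many of the member values.

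Ligand RNA exceeded receptor RNA in every group when both were counted per kb. Summed over the 4 ligands, the level was 56.7 ± 2.24 CPM per kb (SD, n = 4) in CETPtg vehicle, 57.4 ± 0.640 in CETPtg evacetrapib, 58.3 ± 1.09 in APPtg/CETPtg vehicle and 59.9 ± 2.66 in APPtg/CETPtg evacetrapib mice, so the ligand sum differed little between groups. Vegfb (mean 41.5 CPM per kb over all mice) and Vegfa (14.7) made up most of this sum. It therefore says little about Vegfc (1.13) and Pgf (0.747). The 3 receptors summed to 6.37 ± 0.677 CPM per kb in CETPtg vehicle, 7.74 ± 0.794 in CETPtg evacetrapib, 5.76 ± 0.567 in APPtg/CETPtg vehicle and 7.40 ± 0.754 in APPtg/CETPtg evacetrapib mice, with higher values under evacetrapib in both genotypes. Flt1 (mean 4.89 CPM per kb over all mice) made up most of the receptor sum. In bulk tissue, more cells of a type and more RNA per cell cannot be told apart, and neither can fewer cells of a type and less RNA per cell. For the 2 neuropilins the sums were 6.503 ± 0.777, 5.98 ± 0.551, 5.66 ± 0.782 and 5.86 ± 0.699 CPM per kb in the same order of groups, which overlapped throughout. As a ratio, receptor over ligand RNA was 0.112 ± 0.0120 in CETPtg vehicle against 0.135 ± 0.0141 in CETPtg evacetrapib mice, and 0.0988 ± 0.00938 in APPtg/CETPtg vehicle against 0.123 ± 0.00834 in APPtg/CETPtg evacetrapib mice. In APPtg/CETPtg mice the lowest ratio under evacetrapib, 0.113, lay above the highest under vehicle, 0.110. In CETPtg mice the ranges overlapped, with 0.128 as the highest ratio under vehicle and 0.123 as the lowest under evacetrapib. This ratio was not tested and has no share over all genes beside it. It holds Flt1, the only member whose own evacetrapib and vehicle values did not overlap in APPtg/CETPtg mice.

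The members spanned a wide range of levels, with Vegfb at the top and Flt4 at the bottom. Over the 16 mice the mean was 41.5 ± 1.60 CPM per kb for Vegfb, 14.7 ± 1.48 for Vegfa and 4.89 ± 0.697 for Flt1. Below them came Nrp2 at 3.96 ± 0.571, Nrp1 at 2.04 ± 0.382 and Kdr at 1.38 ± 0.288 CPM per kb. Vegfc at 1.13 ± 0.178, Pgf at 0.747 ± 0.0898 and Flt4 at 0.551 ± 0.0889 CPM per kb were the lowest. The ranges over mice did not overlap between Vegfb, Vegfa and Flt1, whereas from Flt1 downward each member overlapped with the next one in the order. Flt1 nevertheless exceeded Nrp2 in 12 of 16 mice, Nrp2 exceeded Nrp1 in 16 and Nrp1 exceeded Kdr in 16. Vegfb had a higher level than 94% of the genes tested and Flt4 than 20.9%, which places the family from the upper to the lower part of the brain's expressed genes.

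The order of the members did not depend on the length used, but the levels and ratios per kb did. Per kb of the longest transcript the mean was 52.0 CPM for Vegfb, 18.2 for Vegfa, 9.57 for Flt1, 6.98 for Nrp2, 5.47 for Nrp1, 2.10 for Kdr, 1.13 for Vegfc, 1.04 for Pgf and 0.725 for Flt4. Flt1 and Nrp1 moved most, since much of their exon sequence lies outside that transcript. Over the 16 mice, receptor over ligand RNA was then 0.171, Flt1 and Kdr stood at 0.643 of Vegfa, Flt4 at 0.660 of Vegfc, and Nrp2 at 1.31 times Nrp1. Ligand RNA still exceeded receptor RNA in every group. The sizes of ratios between genes below hold for exon lengths only.

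**Figure D1:**
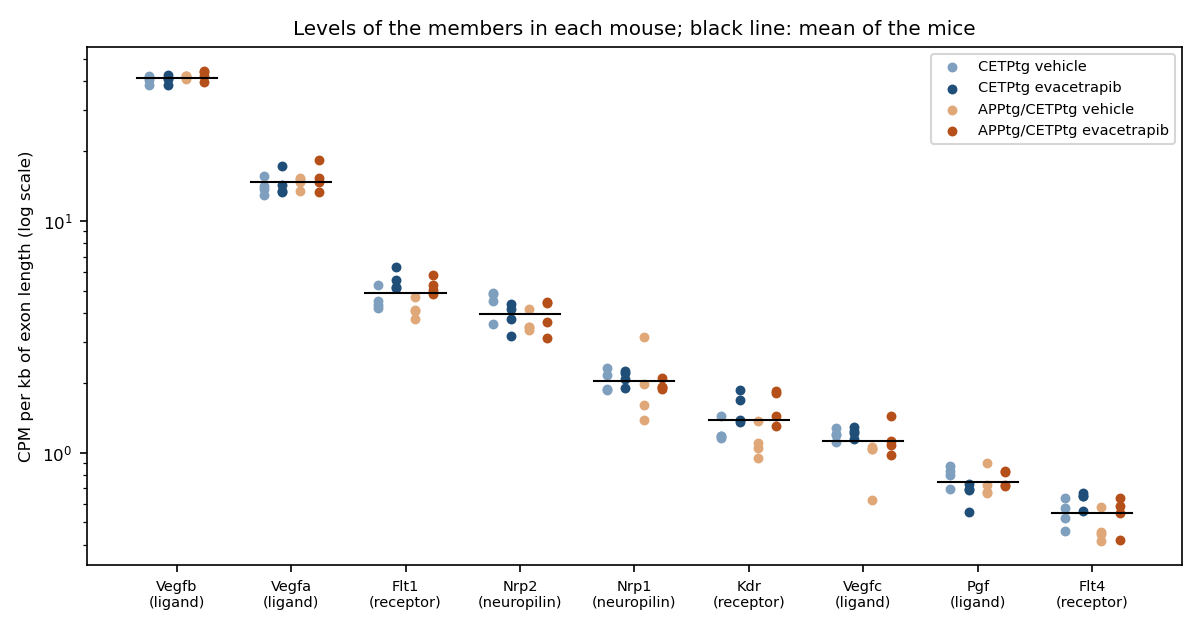
Level of each VEGF member in each of the 16 mice, in CPM per kb of exon length on a log axis, coloured by group, with a black line at the mean over the mice. Vegfb (mean 41.5) and Vegfa (14.7) lie above the other members in each mouse, and Flt4 (0.551) has the lowest mean.

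Vegfa, the main ligand of Flt1 and Kdr and a driver of vessel sprouting and leakiness, is ENSMUSG00000023951 on the minus strand of chromosome 17, from 46016993 to 46032369 in GRCm38. Its levels in CETPtg vehicle mice were 55.6 CPM in S1, 66.9 in S2, 60.4 in S3 and 58.5 in S4, and in CETPtg evacetrapib mice 74.1 in A, 57.0 in B, 57.7 in C and 61.1 in D. APPtg/CETPtg vehicle mice had 65.1 CPM in S5, 63.3 in S6, 57.7 in S7 and 65.6 in S8, and APPtg/CETPtg evacetrapib mice 62.8 in E, 57.0 in F, 78.2 in G and 65.6 in H. A and G were the highest mice, both under evacetrapib, and the ranges of the 4 groups overlapped. Evacetrapib over vehicle gave a log2 fold change of 0.06 (SE 0.0632) over all mice, 0.05 (SE 0.0907) in CETPtg and 0.06 (SE 0.0919) in APPtg/CETPtg mice, and over all mice it was 0.01 without A. With 1 mouse left out it ran from -0.04 to 0.11 in CETPtg and from -0.02 to 0.14 in APPtg/CETPtg mice. Evacetrapib and vehicle values of Vegfa thus differed by less than the spread within groups.

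Vegfb, a ligand of Flt1 known for its part in the survival of vessels and the handling of fatty acids, is ENSMUSG00000024962 on the minus strand of chromosome 19, from 6982473 to 6987651. It was the steadiest member, with a mean coefficient of variation within groups of 3.50% against 9.52% for Flt1 and 10.02% for Vegfa. Its group means were 65.2 ± 2.40 CPM in CETPtg vehicle, 65.6 ± 2.61 in CETPtg evacetrapib, 67.4 ± 1.00 in APPtg/CETPtg vehicle and 68.4 ± 3.30 in APPtg/CETPtg evacetrapib mice (SD, n = 4). Over all mice the log2 fold change of evacetrapib over vehicle was 0.015 (SE 0.0322). Vegfa stood at about the same fraction of Vegfb throughout, with a ratio per kb of 0.3466, 0.3583, 0.3502 and 0.3622 in the same order of groups.

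Vegfc, the lymphatic ligand that binds Flt4, is ENSMUSG00000031520 on the plus strand of chromosome 8, from 54077606 to 54187096. It ran from 2.71 to 3.12 CPM in CETPtg vehicle, from 2.82 to 3.15 in CETPtg evacetrapib, from 1.53 to 2.59 in APPtg/CETPtg vehicle and from 2.40 to 3.53 in APPtg/CETPtg evacetrapib mice. All 4 APPtg/CETPtg vehicle mice lay below all 4 CETPtg vehicle mice, the lowest being S6. For evacetrapib over vehicle the log2 fold change was 0.15 (SE 0.108) over all mice and 0.08 without S6, with 0.03 (SE 0.146) in CETPtg and 0.28 (SE 0.157) in APPtg/CETPtg mice, where it was 0.15 without S6 and 0.36 without F.

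Pgf, placental growth factor, which binds Flt1 and not Kdr, is ENSMUSG00000004791 on the minus strand of chromosome 12, from 85166635 to 85177790. Group means were 2.32 ± 0.222 CPM in CETPtg vehicle, 1.94 ± 0.227 in CETPtg evacetrapib, 2.16 ± 0.312 in APPtg/CETPtg vehicle and 2.25 ± 0.181 in APPtg/CETPtg evacetrapib mice (SD, n = 4). Of the 4 member ligands Pgf alone had lower values under evacetrapib over all mice. Its log2 fold change was -0.11 (SE 0.103), or -0.06 without A. In CETPtg mice it was -0.26 (SE 0.137), or -0.18 without A, and in APPtg/CETPtg mice 0.06 (SE 0.144), between 0.03 without S5 and 0.16 without S6. Vegfd, the remaining ligand of this branch of the family and outside the 9 members, is ENSMUSG00000031380 on chromosome X and had a level of 0.842 CPM per kb, between Vegfc and Pgf. Its log2 fold change of evacetrapib over vehicle was -0.23 (SE 0.119, adjusted p = 0.664), which did not pass.

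Flt1, VEGF receptor 1, binds Vegfa, Vegfb and Pgf with high affinity, signals weakly and is also made as a soluble form that traps ligand; counts per gene cannot separate the soluble from the membrane form. It is ENSMUSG00000029648 on the minus strand of chromosome 5, from 147561604 to 147726011. CETPtg vehicle mice had 60.6 CPM in S1, 56.9 in S2, 58.3 in S3 and 71.5 in S4, and CETPtg evacetrapib mice 84.9 in A, 69.6 in B, 75.3 in C and 69.5 in D. S4 was the high vehicle mouse and lay above B and D, so these groups overlapped. In APPtg/CETPtg vehicle mice the levels were 51.0 CPM in S5, 55.3 in S6, 55.7 in S7 and 63.4 in S8, and in APPtg/CETPtg evacetrapib mice 65.1 in E, 67.8 in F, 79.2 in G and 71.6 in H. Here the groups did not overlap, with E just above S8. The log2 fold change of evacetrapib over vehicle was 0.30 (SE 0.0586) over all mice, 0.28 (SE 0.0836) in CETPtg and 0.33 (SE 0.0850) in APPtg/CETPtg mice, and with each mouse left out in turn it lay between 0.27 and 0.35 over all mice, 0.21 and 0.36 in CETPtg and 0.27 and 0.39 in APPtg/CETPtg mice.

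Kdr, VEGF receptor 2, carries most of the growth and permeability signal of Vegfa in endothelial cells. The gene, ENSMUSG00000062960, lies on the minus strand of chromosome 5 from 75932827 to 75978458. Its levels were 10.5 CPM in S1, 10.7 in S2, 10.7 in S3 and 13.0 in S4 among CETPtg vehicle mice, and 16.8 in A, 12.2 in B, 15.2 in C and 12.5 in D among CETPtg evacetrapib mice. Among APPtg/CETPtg mice, S5 had 8.53 CPM, S6 9.91, S7 9.46 and S8 12.4 with vehicle, and E had 12.95, F 11.7, G 16.7 and H 16.3 with evacetrapib. S4 and S8 were again the highest vehicle mice, each above at least 1 evacetrapib mouse of its genotype, so both pairs of groups overlapped. The log2 fold change of evacetrapib over vehicle was 0.42 (SE 0.0944) over all mice, 0.34 (SE 0.132) in CETPtg and 0.50 (SE 0.137) in APPtg/CETPtg mice. Without S4 it was 0.47 and without A 0.38, the extremes over the 16 mice left out in turn, with 0.25 to 0.42 in CETPtg and 0.42 to 0.63 in APPtg/CETPtg mice.

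Flt4, VEGF receptor 3, the receptor of Vegfc on lymphatic and sprouting endothelium, is ENSMUSG00000020357 on the plus strand of chromosome 11, from 49609263 to 49652739. It ran from 3.76 to 5.22 CPM in CETPtg vehicle, from 4.63 to 5.52 in CETPtg evacetrapib, from 3.40 to 4.78 in APPtg/CETPtg vehicle and from 3.45 to 5.24 in APPtg/CETPtg evacetrapib mice, and the groups overlapped. Its log2 fold change of evacetrapib over vehicle was 0.22 (SE 0.0963) over all mice and about the same in each genotype, 0.21 (SE 0.135) in CETPtg and 0.22 (SE 0.144) in APPtg/CETPtg mice. With 1 mouse left out it ran from 0.14 to 0.29 in CETPtg and from 0.15 to 0.34 in APPtg/CETPtg mice. All 3 receptors therefore had higher values under evacetrapib in both genotypes.

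**Figure D2:**
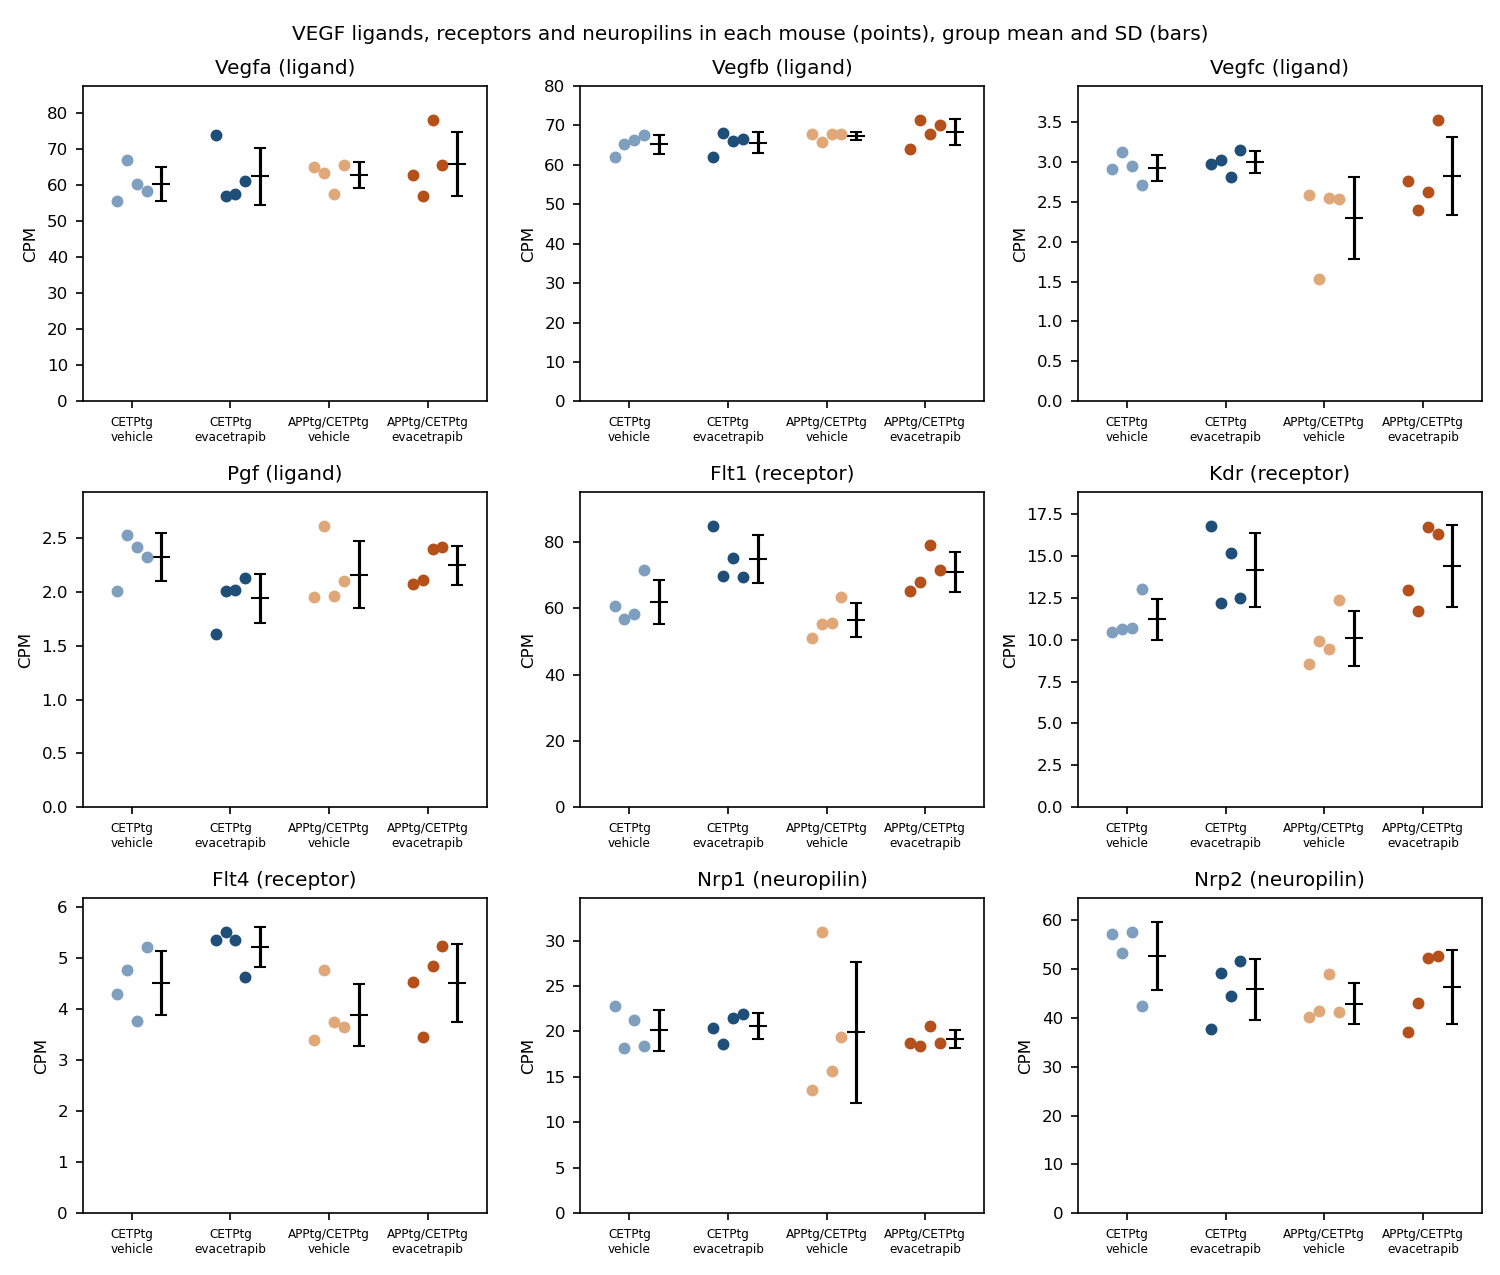
CPM of each VEGF member in each mouse (points, ordered within a group by replicate), with the group mean and SD (bars, n = 4). Flt1 and Kdr have higher group means under evacetrapib in both genotypes (Flt1 74.8 against 61.8 CPM in CETPtg and 70.9 against 56.4 in APPtg/CETPtg mice), whereas the points of Vegfa and Vegfb overlap between groups.

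Neuropilin 1, Nrp1, presents Vegfa to Kdr and binds semaphorin 3A. It is ENSMUSG00000025810 on the plus strand of chromosome 8, from 128358604 to 128503363, and shares 80 bp of exon with Mir1903 on the same strand, the only exon overlap of a member. Its values were close to even, except in APPtg/CETPtg vehicle mice, which had 13.6 CPM in S5, 31.0 in S6, 15.7 in S7 and 19.4 in S8. The other groups ran from 18.2 to 22.8 CPM in CETPtg vehicle, from 18.6 to 21.9 in CETPtg evacetrapib and from 18.4 to 20.6 in APPtg/CETPtg evacetrapib mice. The log2 fold change of evacetrapib over vehicle was -0.0077 (SE 0.114) over all mice and 0.03 with limma-voom. It ran from -0.06 without S5 to 0.12 without S6, and its sign changed in 7 of the 16 fits that left out 1 mouse, so no direction is given for it.

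Neuropilin 2, Nrp2, a co-receptor for Vegfc and semaphorin 3F, is ENSMUSG00000025969 on the plus strand of chromosome 1, from 62703285 to 62818695. Its group means were 52.7 ± 7.03 CPM in CETPtg vehicle, 45.8 ± 6.17 in CETPtg evacetrapib, 43.0 ± 4.13 in APPtg/CETPtg vehicle and 46.3 ± 7.58 in APPtg/CETPtg evacetrapib mice (SD, n = 4), so CETPtg vehicle mice had the highest mean and the groups overlapped. Evacetrapib over vehicle gave a log2 fold change of -0.05 (SE 0.0882) over all mice, between -0.09 without G and -0.002 without A, with -0.20 (SE 0.116) in CETPtg and 0.11 (SE 0.119) in APPtg/CETPtg mice. The CETPtg value was -0.12 without A and -0.29 without S4, and the APPtg/CETPtg value 0.045 without G and 0.205 without E. Per kb, Nrp2 stood at 2.164, 1.845, 1.974 and 1.996 times Nrp1 in the order of groups used above, and at 1.105 times in S6.

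Under evacetrapib the receptors had the highest median of the 3 roles, without a test of that order. The median log2 fold change over all mice was 0.30 over the 3 receptors, 0.04 over the 4 ligands and -0.03 over the 2 neuropilins, beside -0.001 over all genes tested. In CETPtg mice these medians were 0.28, 0.02 and -0.09, and in APPtg/CETPtg mice 0.33, 0.06 and 0.03, although there the ligand Vegfc (0.28) exceeded the receptor Flt4 (0.22). Higher values under evacetrapib were found for 6 of the 9 members over all mice, 7 in CETPtg and 8 in APPtg/CETPtg mice, where 49.15%, 49.08% and 49.62% of all genes were higher. Over all genes edgeR called 2 genes over all mice (0.0107% of those tested), 0 in CETPtg mice (0%) and 8 in APPtg/CETPtg mice (0.043%), where a call here and below needs an adjusted p no higher than 0.05 and a log2 fold change of 0.07 or more in size. These counts depended on the method, at 59 over all mice, 0 in CETPtg and 73 in APPtg/CETPtg mice with DESeq2, 2, 0 and 7 with limma-voom, and 35, 9 and 88 genes with edgeR and no filter on low counts. Genes with an unadjusted p below 0.05 made up 7.91% over all mice and 5.8% in CETPtg mice, and numbered 1677 in APPtg/CETPtg mice. With 4 mice against 4, evacetrapib values lay entirely above vehicle values for 0 of 9 members in CETPtg mice, against 2.1% of all genes, and for 1 of 9 in APPtg/CETPtg mice, Flt1, against 1.97%. Values entirely below vehicle were found for 0 of 9 members in APPtg/CETPtg mice, against 2.32% of all genes, among them Vegfd. These shares are given as background only, since this comparison chose the members.

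**Figure D3:**
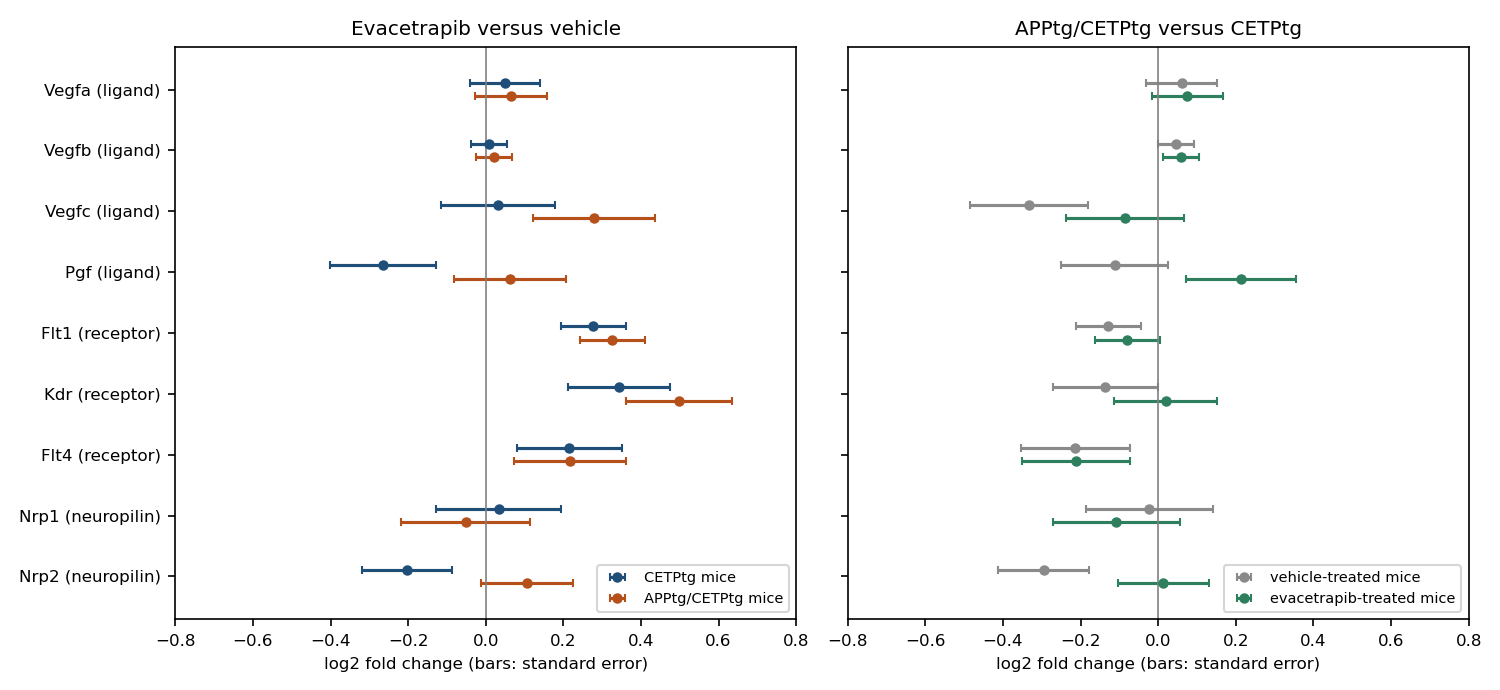
Log2 fold change of each VEGF member for evacetrapib over vehicle within each genotype (left) and for APPtg/CETPtg over CETPtg within each treatment (right), with bars of 1 standard error. Flt1, Kdr and Flt4 lie to the right of 0 in both genotypes on the left (0.21 to 0.50), and Nrp2 (-0.30) and Vegfc (-0.33) lie farthest to the left of 0 in vehicle-treated mice on the right.

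Ratios of receptor to ligand within a mouse do not depend on the scaling between libraries. Flt1 and Kdr together stood at 0.416 ± 0.0633 of Vegfa per kb in CETPtg vehicle and at 0.489 ± 0.0357 in CETPtg evacetrapib mice (SD, n = 4). These groups overlapped, with S4 at 0.493 above A (0.471), B (0.489) and D (0.458) and below C (0.539). In APPtg/CETPtg mice the ratio was 0.361 ± 0.0382 with vehicle and 0.447 ± 0.0264 with evacetrapib, where the highest vehicle mouse, 0.396, lay below the lowest evacetrapib mouse, 0.422. Between the receptors, Flt1 stood at 3.69 ± 0.126, 3.56 ± 0.251, 3.78 ± 0.261 and 3.335 ± 0.395 times Kdr per kb in the same order of groups, so the balance of the 2 main Vegfa receptors overlapped between groups. Flt4 stood at 0.461, 0.520, 0.546 and 0.477 of Vegfc, with 0.928 in S6 as the highest mouse, and the APPtg/CETPtg vehicle mean was 0.419 ± 0.0245 (n = 3) without it. The ratios were not tested and have no share over all genes beside them. The ratio to Vegfa holds Flt1, whose own values did not overlap in APPtg/CETPtg mice, so it is not a separate result.

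Whether evacetrapib acted differently on the family in the 2 genotypes was tested as the difference of its effect between them. edgeR called 0 of the 9 members, and 0 of 18609 genes (0%). An unadjusted p below 0.05 was found for 0 members, beside 6.83% of all genes. DESeq2 and limma-voom called 0 members as well, each with 0 at an unadjusted p below 0.05, and over all genes they called 2 and 0, while edgeR with no filter on low counts called 29 genes. The largest differences were those of Pgf, 0.33 (SE 0.199, adjusted p = 0.758), and Nrp2, 0.31 (SE 0.166, adjusted p = 0.739), both from lower values under evacetrapib in CETPtg mice and slightly higher values in APPtg/CETPtg mice. For Flt1 the difference was 0.05 (SE 0.119, adjusted p = 0.952) and for Kdr 0.16 (SE 0.190, adjusted p = 0.884), running from -0.02 to 0.11 and from 0.08 to 0.28 with 1 mouse left out. A difference in the effect was thus not detected for any member with 4 mice per group.

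The genotypes differed in many genes, and 0 of the 9 members were among the genes called. Over all mice edgeR called 3299 genes between APPtg/CETPtg and CETPtg (17.7%), 1740 higher and 1559 lower. At an unadjusted p below 0.05 there was 1 member, Flt4, beside 30.5% of all genes, and DESeq2 and limma-voom each gave 0 called and 1 at an unadjusted p below 0.05 too. Flt4 had a log2 fold change of -0.21 (SE 0.0965, adjusted p = 0.140), with an adjusted p between 0.0601 (without S6) and 0.248 when 1 mouse was left out. All 3 receptors and both neuropilins had lower values in APPtg/CETPtg mice, with medians of -0.10 for each of these roles beside 0.005 over all genes, and 3 of the 4 ligands had higher values, with a median of 0.05. Nrp2 stood at -0.14, and with 1 mouse left out its adjusted p ran from 0.117 to 0.457. Vegfc was the ligand with lower values, at -0.21 (SE 0.108, adjusted p = 0.201), and at -0.14 without S6. Nrp1 moved from -0.06 (SE 0.114, adjusted p = 0.753) to -0.20 without S6 (adjusted p = 0.0617) and to -0.006 without S5 (adjusted p = 0.9805), and Pgf from 0.05 (SE 0.103, adjusted p = 0.809) to -0.004 without A. Flt1 stood at -0.10 (SE 0.0585, adjusted p = 0.244), Kdr at -0.06 (SE 0.0944, adjusted p = 0.735, or -0.02 without A), Vegfa at 0.07 (SE 0.0632, adjusted p = 0.510, or 0.02 without G) and Vegfb at 0.05 (SE 0.0322, adjusted p = 0.289).

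Within vehicle-treated mice the genotypes differed in 1934 genes (10.4%), a count that fell to 1007 without S1, to 909 without S3 and to 1215 without S8. Of the 9 members 0 were called by edgeR, DESeq2 or limma-voom with all mice and the filter, and 2 had an unadjusted p below 0.05 with each tool, beside 25.2% of all genes with edgeR. These were Nrp2, at -0.30 (SE 0.117, adjusted p = 0.116), and Vegfc, at -0.33 (SE 0.152, adjusted p = 0.176). Nrp2 reached the threshold without S4 (-0.39, adjusted p = 0.0435) and with no filter on low counts (-0.29, adjusted p = 0.0411), and Vegfc moved to -0.20 without S6 (adjusted p = 0.373). Vegfc was also the 1 member of 9 whose APPtg/CETPtg vehicle values all lay below the CETPtg vehicle values, which held for 7.33% of all genes. Within evacetrapib-treated mice 556 genes differed (2.99%), or 1135 with DESeq2, and 0 members were called by any of the 3 tools, with 0 at an unadjusted p below 0.05, beside 19.3% of all genes with edgeR. There Nrp2 stood at 0.01 (SE 0.117, adjusted p = 0.969) and Vegfc at -0.09 (SE 0.151, adjusted p = 0.815), which ran from -0.08 to 0.10 and from -0.21 to -0.02 with 1 mouse left out. The count of 556 was sensitive to single mice, at 91 without A, 858 without B, 223 without C, 335 without E, 206 without F, 300.0 without G and 335 without H.

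Most vessel markers, like the receptors, had higher values under evacetrapib. The marker lists were chosen with earlier results of these data known, and Pecam1 and Cdh5 are among the genes the study reported under evacetrapib. Their p-values come from the comparison that chose the members, so they are not independent of the receptor values. Of the 24 endothelial markers, which include no member, 23 had higher values under evacetrapib over all mice, with a median log2 fold change of 0.22. edgeR called 0 of them, DESeq2 3 and limma-voom 0, each with 16 at an unadjusted p below 0.05. Over all genes edgeR called 0.0107% and found 7.91% at an unadjusted p below 0.05, and DESeq2 called 59 genes. The largest changes by p were those of the junction genes Pecam1 (0.31, SE 0.0657, adjusted p = 0.169), Cdh5 (0.33, SE 0.0764, adjusted p = 0.173) and Cldn5 (0.43, SE 0.106, adjusted p = 0.2196). Summed over the 24 markers, the level was 498.3 CPM in S1, 480.3 in S2, 487.8 in S3 and 563.5 in S4, against 607.7 in A, 550.3 in B, 582.8 in C and 522.4 in D. It was 462.7 CPM in S5, 467.8 in S6, 489.3 in S7 and 558.1 in S8, against 549.0 in E, 558.9 in F, 601.1 in G and 583.8 in H. The vehicle mice S4 and S8, the highest of their groups for Flt1 and Kdr, were the highest here too. Cd34 was the most abundant marker, at a mean of 55.1 CPM, and 0 of the 24 markers were at 0 in a mouse. The part of endothelial RNA in the receptor values was not tested.

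Markers of the mural cells, which wrap the endothelium, were higher as well. The same limit holds here, since the study also reported Acta2, Tagln and Myh11 under evacetrapib. All 9 pericyte markers had higher values under evacetrapib over all mice (median 0.17), against 7 in CETPtg and 9 in APPtg/CETPtg mice. Over all mice 0 were called by edgeR with 5 at an unadjusted p below 0.05, 1 by DESeq2 and 0 by limma-voom. The pericyte sums ran from 182 to 263 CPM, with Rgs5 the most abundant at 70.3 CPM. All 7 smooth muscle markers were higher over all mice (median 0.40) and within each genotype. Over all mice 1 was called by edgeR with 3 at an unadjusted p below 0.05, 3 by DESeq2 and 1 by limma-voom. Their sums ran from 33.2 to 41.2 CPM in CETPtg vehicle and from 39.6 to 52.4 in CETPtg evacetrapib mice. In APPtg/CETPtg mice the sums ran from 29.0 to 40.8 with vehicle and from 44.5 to 51.1 with evacetrapib. Myl9 was the most abundant at 12.75 CPM. Within APPtg/CETPtg mice DESeq2 called 2 pericyte and 2 smooth muscle markers, all higher, and edgeR and limma-voom called 0. Beside these counts, edgeR called 0.0107% of all genes over all mice, with 7.91% at an unadjusted p below 0.05. DESeq2 called 59 genes over all mice and 73 in APPtg/CETPtg mice. Myh11, the heavy chain of smooth muscle myosin, rose by 0.56 (SE 0.0802, adjusted p = 0.0193) and was 1 of the 2 genes called over all mice. The other, Bhlhe41, a clock repressor outside the lists that was chosen after its values were seen, fell (-0.39, SE 0.0592, adjusted p = 0.0233). That count of 2 ran from 0 (without B, D, E, F, H, S1, S3, S5 or S7) through 1 (without G) and 4 (without S4) to 8 (without S8). None of these markers was at 0 in a mouse, and their part in the receptor values was not tested.

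From mouse to mouse within a group, Flt1 and Kdr followed the endothelial markers and the ligands did not pass the test. For each gene, edgeR fitted a slope on the endothelial score, the mean z-score of the 24 markers centred within each group, per 1 SD of the score. It called 7 genes over the transcriptome (0.0376%), all with positive slopes, or 16 with no filter on low counts, and 2 of the 9 members were among them. Flt1 rose by 0.11 (SE 0.0167, adjusted p = 0.0348) and Kdr by 0.17 (SE 0.0275, adjusted p = 0.0348) on the log2 scale per SD. Ptprb (0.12), Pecam1 (0.12) and Cdh5 (0.14), which were also called, are markers within the score itself, and the remaining calls were Apln (0.15, adjusted p = 0.0428), the ligand of the apelin receptor, and Bcas1 (0.13, adjusted p = 0.0428), a gene of oligodendrocytes. At an unadjusted p below 0.05 there were 2 members, the same Flt1 and Kdr, beside 4.44% of all genes.

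The calls of Flt1 and Kdr were lost when most mice were left out in turn, although their slopes changed little. With each mouse left out in turn the slope of Flt1 stayed between 0.09 and 0.12 and that of Kdr between 0.15 and 0.18. The adjusted p of Flt1 was at most 0.05 only without B (0.0408), F (0.0373) or S6 (0.0368), and that of Kdr only without B (0.0408) or S6 (0.0368). Otherwise it lay between 0.0554 and 0.345 for Flt1, highest without S4, and between 0.0554 and 0.377 for Kdr, highest without S8. The number of genes called fell from 7 to 4 without B or F, to 3 without S6 and to 0 without any other mouse. S8 (1.98) and S4 (1.82) had the highest centred scores and D (-1.17) the lowest.

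The other 7 members did not pass. Vegfa had a slope of 0.04 (SE 0.0325, adjusted p = 0.9997), Flt4 of 0.07 (SE 0.0497) and Vegfc of 0.01 (SE 0.0559), Vegfb of 0.0018 (SE 0.0174), Pgf of -0.02 (SE 0.0514), Nrp1 of -0.0069 (SE 0.0615) and Nrp2 of -0.05 (SE 0.0430), each with the same adjusted p. The signs for Vegfb, Vegfc and Nrp1 turned with 1 mouse left out, for Nrp1 to 0.05 without S6. Markers of other cells also had positive slopes on the endothelial score, among them 9 of 9 oligodendrocyte and 5 of 5 red blood cell markers at an unadjusted p below 0.05, with 0 called by edgeR. The oligodendrocyte markers summed to between 3468 and 5290 CPM, with Mbp the most abundant at 2162 CPM, and the red blood cell markers to between 69.9 and 289 CPM, with Hbb-bs at 66.6 CPM, and none was at 0 in a mouse. Their part in the slopes of Flt1 and Kdr was not tested.

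**Figure D4:**
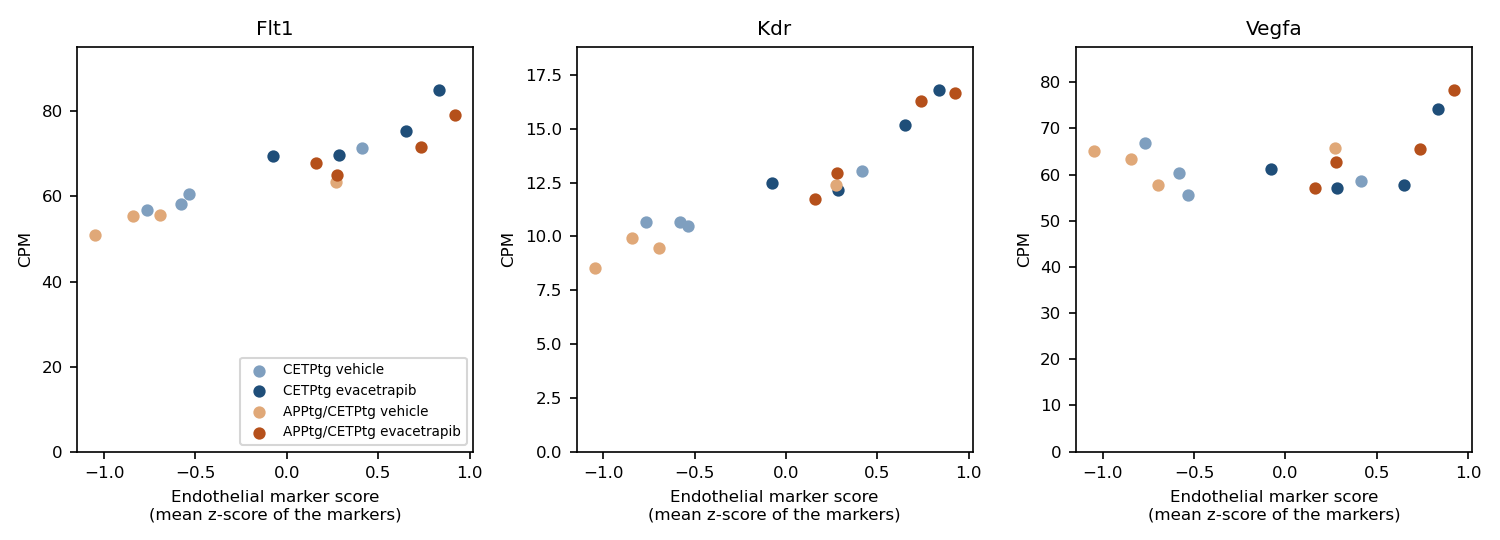
CPM of Flt1, Kdr and Vegfa in each mouse against its endothelial marker score (mean z-score of the 24 markers, before centring in groups), coloured by group. The mice with the highest scores, G (0.922) and A (0.835), have the highest Flt1 and Kdr levels of the 16, and S5, with the lowest score (-1.05), has the lowest.

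Choroid plexus RNA varied widely between brains, and no member was called with it. The 11 markers summed to 28.7, 25.8, 181 and 18.2 CPM in S1 to S4, 19.3, 133, 46.9 and 26.6 in A to D, 20.3, 22.8, 129 and 477 in S5 to S8, and 21.5, 16.7, 27.7 and 35.0 in E to H. Ttr was the most abundant at a mean of 51.0 CPM, and 1 of the 11 markers was at 0 in at least 1 mouse. edgeR called 25 genes with the choroid plexus score within groups (0.134%), all positive, and 0 of the 9 members. Of the 25 genes, 9 are markers within the score itself, among them Ttr (2.67 per SD), Kl, Otx2 and Folr1. The count of 25 became 11 without S3, 86 without S8, 69 with no filter on low counts and 8 with at least 10 counts in every mouse. Nrp2, at 0.09 (SE 0.0382, adjusted p = 0.738), was the 1 member at an unadjusted p below 0.05, beside 6.13% of all genes. Flt1 had a slope of 0.0016 (SE 0.0309, adjusted p = 0.998), Kdr of 0.03 (SE 0.0492, adjusted p = 0.979) and Vegfa of -0.02 (SE 0.0334, adjusted p = 0.984).

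With the group means removed, Flt1 and Kdr varied together over the 16 mice, which is a description and not a test. The 5 genes most alike to Flt1 by Pearson correlation of log2 CPM were Pecam1 (0.906), Kdr (0.894), Cdh5 (0.849), Aplp2 (0.845) and Cxcl12 (0.835). For Kdr they were Cdh5 (0.946), Bcas1 (0.901), Flt1, Lmcd1 (0.861) and Gng12 (0.833). Vegfa was most alike to a different group, C030037D09Rik (0.862), 4930597O21Rik (0.828), Wwtr1 (0.827), Shtn1 (0.819) and Rbpjl (0.799). Among the members themselves Flt1 and Kdr were the closest pair, whereas Flt4 correlated at 0.374 with Flt1 and at 0.530 with Kdr. Vegfa correlated at 0.561 with Kdr and at 0.433 with Flt1, the latter 0.229 without A. Vegfc and Nrp1 were the most opposed, at -0.711, but that value came from S6, the lowest mouse for Vegfc and the highest for Nrp1, and was -0.0668 over the other 15 mice.

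Downstream of the receptors, no signalling gene was called under evacetrapib. Of 35 listed genes of VEGF receptor signalling 34 were tested, and over all mice 22 had higher values, with a median of 0.03. edgeR, DESeq2 and limma-voom each called 0 and found 3 at an unadjusted p below 0.05, beside 7.91% of all genes with edgeR. The 3 with the smallest p were Ptprb, a vascular phosphatase (0.23, SE 0.0627, adjusted p = 0.290), Nos3, the endothelial nitric oxide synthase (0.22, SE 0.0736, adjusted p = 0.440), and the sphingosine kinase Sphk2 (0.16, SE 0.0552, adjusted p = 0.485). In APPtg/CETPtg against CETPtg mice, where 17.7% of all genes were called, 3 rose (Map2k1, Map2k2 and Mapk3) and 8 fell, among them Ptprb, Prkcb, Pik3ca, Yes1, Gab1 and Rac1, with Mapk3 at 0.20 (SE 0.0428, adjusted p = 0.00278) and Rac1 at -0.14 (SE 0.0298, adjusted p = 0.00302). As these are values of bulk brain, the cells in which the genes of this paragraph changed are not known. Of 21 listed genes that VEGF induces in endothelium 20 were tested, and 12 had higher values under evacetrapib over all mice. The median was 0.09, with 0 called by the 3 tools. At an unadjusted p below 0.05 edgeR found 5, beside 7.91% of all genes, DESeq2 5 and limma-voom 6. F3 (-0.17, SE 0.0455, adjusted p = 0.269), Mmp14 (0.26, SE 0.0981, adjusted p = 0.534) and Esm1 (0.53, SE 0.213, adjusted p = 0.548) had the smallest p. Within APPtg/CETPtg mice Ccn1, a matrix protein of this list, fell under evacetrapib (-1.28, SE 0.215, adjusted p = 0.0282) as 1 of the 8 genes called there, a count that was 4 without F, S2 or S4, 5 without H or S5, 3 without S7, 0 without G and 14 without S8. Between genotypes over all mice Esm1 (0.64, SE 0.212, adjusted p = 0.0421), Col4a1 (0.27, SE 0.0643, adjusted p = 0.00632) and Col4a2 (0.32, SE 0.0619, adjusted p = 0.00147) rose, 3 of the 20 tested genes of this list, beside 17.7% of all genes called in that comparison.

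Among the partners of the members in other guidance and vessel pathways, edgeR called 2 of 13, 5 of 25, 3 of 24 and 6 of 22 genes of the lists below between genotypes, beside 17.7% of all genes, and none under evacetrapib, beside 0.0107%. The lists were not tested against that background. Over all genes 7.91% had an unadjusted p below 0.05 under evacetrapib with edgeR. DESeq2 called 59 genes over all mice and 73 in APPtg/CETPtg mice. Evacetrapib values of these lists are over all mice unless a genotype is named. Of 13 semaphorins, plexins and adaptors of the neuropilins 9 had higher values under evacetrapib (median 0.02), with 0 called by any of the 3 tools and 2 at an unadjusted p below 0.05 with each. Between genotypes the neuropilin adaptor Gipc1 rose (0.20, SE 0.0387, adjusted p = 0.00159) and the Nrp1 ligand Sema3a fell (-0.27, SE 0.0716, adjusted p = 0.0123). Among 25 tested genes of other angiogenic pairs 22 had higher values under evacetrapib (median 0.09), with 0 called by edgeR or limma-voom, 1 by DESeq2 and 9 at an unadjusted p below 0.05 with each, led by Cxcl12 (0.31, SE 0.0704, adjusted p = 0.169), Eng (0.24, SE 0.0690, adjusted p = 0.334) and Apln (0.26, SE 0.0807, adjusted p = 0.403). Within APPtg/CETPtg mice DESeq2 called 1 of these 25 genes under evacetrapib, as higher, and edgeR and limma-voom called 0. Between genotypes Pdgfb rose and Bmpr2 (-0.39, SE 0.0458, adjusted p = 2.46e-05), Jag1, Notch1 and Ephb4 fell. Of 24 endothelial transcription factors 17 had higher values under evacetrapib over all mice (median 0.10). There each tool called 0 of these factors and found 7 at an unadjusted p below 0.05, Ets1 first (0.34, SE 0.0901, adjusted p = 0.274). Within APPtg/CETPtg mice DESeq2 called 1 of the 24 factors, as lower, and edgeR and limma-voom called 0. Mef2c, the most abundant gene of this list, Foxo1 and Tcf4 fell between genotypes. These are values of bulk brain, so the cells in which they fell are not known. Of 22 hypoxia genes, the class that includes the regulators of Vegfa, 10 had higher values under evacetrapib over all mice (median -0.03). There each tool found 4 of them at an unadjusted p below 0.05 and called 0. For evacetrapib in APPtg/CETPtg mice, 1 hypoxia gene was called by DESeq2, as lower, and 0 by edgeR or limma-voom. Between genotypes Pgk1, Ldha, Ddit4 and Egln2 rose and the regulators Hif1a (-0.20, SE 0.0412, adjusted p = 0.00271) and Epas1 (-0.24, SE 0.0416, adjusted p = 6.56e-04) fell, and Vegfa itself did not pass.

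The remaining cell type markers give the setting of the genotype values. Between genotypes over all mice, where edgeR called 17.7% of all genes, 4 of 24 endothelial markers were called, Egfl7 and Ly6a higher and Ptprb and Slco1a4 lower, with a median of -0.03, and 1 of 9 pericyte markers, Notch3, was lower. Microglia markers rose in 5 of 10 cases (median 0.18), oligodendrocyte markers fell in 5 of 9 (-0.23), astrocyte markers rose in 1 and fell in 4 of 11 (-0.11), neuron markers rose in 1 of 10 (-0.03) and fibroblast markers fell in 1 of 10 (-0.09). Of the smooth muscle (7), choroid plexus (11), red blood cell (5) and tested pituitary (1) markers 0 were called over all mice by edgeR, DESeq2 or limma-voom, with 1 choroid plexus marker at an unadjusted p below 0.05 by each. Within evacetrapib-treated mice edgeR called the pituitary marker Pomc (4.98, SE 1.19, adjusted p = 0.0311), in a comparison that holds mouse E, and DESeq2 and limma-voom did not. Under evacetrapib the median was -0.02 for astrocyte, -0.01 for neuron, -0.01 for oligodendrocyte, 0.003 for microglia, 0.04 for red blood cell, 0.18 for fibroblast and -0.51 for choroid plexus markers. In CETPtg and in APPtg/CETPtg mice the medians were 0.39 and -0.42 for red blood cell, -0.01 and 0.36 for fibroblast and -0.10 and -1.16 for choroid plexus markers. The difference of the effect between genotypes was not detected for these 3 lists, with 0 called by any tool and 0 of 5, 2 of 10 and 2 of 11 markers at an unadjusted p below 0.05 with edgeR, beside 6.83% of all genes. Among APPtg/CETPtg vehicle mice, the choroid plexus sums were 129 CPM in S7 and 477 in S8, against 20.3 in S5 and 22.8 in S6. For evacetrapib the 3 tools called 0 markers of these 7 cell types over all mice or within a genotype. At an unadjusted p below 0.05 edgeR found 3 astrocyte, 2 fibroblast, 2 choroid plexus and 0 other markers over all mice and 0 in CETPtg mice. Over all genes these shares were 7.91% and 5.8%. In APPtg/CETPtg mice edgeR found 4 astrocyte, 4 fibroblast, 5 choroid plexus, 1 neuron and 1 microglia marker, beside 1677 of all 18609 genes tested.

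The 2 receptors that followed the vessel markers together, Flt1 and Kdr, are both transcribed from the minus strand of chromosome 5, and their promoters are printed here because their RNA varied together over the mice. The sequences are the 250 bases before the RefSeq start of each gene in GRCm38.p6, chr5:147726012-147726261 for Flt1 and chr5:75978456-75978705 for Kdr, 5′ to 3′ on the minus strand, with capitals for GC boxes (GGGCGG, here as its reverse complement), the TATA box TATAAA and the cAMP response element TGACGTCA.
Flt1: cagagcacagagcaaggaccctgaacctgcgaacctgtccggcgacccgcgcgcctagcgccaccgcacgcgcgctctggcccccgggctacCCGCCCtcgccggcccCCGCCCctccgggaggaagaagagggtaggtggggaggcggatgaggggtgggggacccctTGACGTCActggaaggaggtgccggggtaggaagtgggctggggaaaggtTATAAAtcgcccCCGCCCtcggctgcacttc
Kdr: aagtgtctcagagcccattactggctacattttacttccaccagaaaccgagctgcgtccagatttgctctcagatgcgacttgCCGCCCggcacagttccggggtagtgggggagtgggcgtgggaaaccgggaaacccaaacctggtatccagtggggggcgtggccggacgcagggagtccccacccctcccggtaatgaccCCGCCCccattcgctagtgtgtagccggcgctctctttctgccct
All 9 members matched an entry of the promoter table, and each motif was searched on both strands. The GC box was present in 9 of 9 members and in 32.7% of 32851 promoters of this length, and the ETS core GGAA in 8 of 9, all except Pgf, and in 93.4% of promoters. TATAAA and TGACGTCA were found in Flt1 alone among the members, 31 and 81 bases before the start, and in 12.4% and 1.55% of all promoters. The hypoxia element core ACGTG was in 0 of 9 members and in 16.6% of promoters, which says only that these letters are not in these windows. Flt1 had GC boxes 158, 142 and 19 bases before the start and Kdr 166 and 45, with 4 GGAA each and a GC content of 70.4% and 61.6%. A match is a description of the letters and not evidence of a bound factor.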

How the data were processed

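The values deposited by the authors are raw read counts for each gene. The authors trimmed read pairs with Trimmomatic 0.39, aligned them to mm10 with STAR 2.7.8a, used Picard 2.0.1 and counted reads with HTSeq-count; its annotation and strand setting are not given. Columns without a mouse numbered 0. Of 55487 identifiers, 55227 are in GENCODE M21, and since 114 symbols occur more than once, genes were kept apart by identifier. The members and the 20 gene lists, some of which share genes, were chosen with earlier results of these data known.

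The 18609 genes with 10 counts or more in 4 mice or more entered the two-sided quasi-likelihood test of edgeR 4.0.16 (R 4.3.3, TMM), and p-values were adjusted by Benjamini-Hochberg over all of them. Over all mice the model had a genotype and a treatment term, and other contrasts came from 4 group means. A call needed an adjusted p no higher than 0.05 and a log2 fold change of 0.07 or more in size. Log2 CPM used a prior count of 2. DESeq2 1.42.0 and limma 3.58.1 (voom) served as other tools. The alternatives were size factors of DESeq2, other filters, dropped terms, a replicate block, marker means without z-scores, other lengths or library totals for levels, and each mouse left out in turn. The steps were tested on simulated data.

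Genes were named by rule: the 9 members; of each other list the most abundant gene, up to 3 with the smallest p for evacetrapib over all mice, and those called in a comparison; the 5 genes most alike to Flt1, Kdr and Vegfa; and Vegfd. Not every gene the rule takes is printed, and genes outside the lists enter by likeness, except Bhlhe41, called for evacetrapib over all mice, and Mir1903, which overlaps Nrp1.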

Additional observations from a re-analysis of the deposited data

Results flagged for a closer look

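In 5 of 40 groups of 4 mice (9 members and Vegfd in 4 groups each), 1 mouse lay far from the other 3 by Dixon's ratio, where chance gives about 1 in 20 groups. In APPtg/CETPtg vehicle mice, S6 had the lowest Vegfb, 65.8 CPM with the nearest mouse at 67.8, and the lowest Vegfc, 1.53 CPM with the nearest at 2.53. In the same group S7 had the highest Nrp2, 49.1 CPM with the nearest at 41.4. In CETPtg vehicle mice S4 had the highest Kdr, 13.0 CPM with the nearest at 10.7. In APPtg/CETPtg evacetrapib mice G had the highest Nrp1, 20.6 CPM with the nearest at 18.8.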

How the results depend on the processing

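Apart from the mice left out, 424 of the values for single genes kept their direction and side of the threshold or, where there was no test, moved by less than the spread between replicates. Among the latter, Nrp1 for evacetrapib changed sign with limma-voom, to 0.028 over all mice and 0.018 in APPtg/CETPtg mice. A further 8 moved by more than that spread, the levels per kb of all members but Vegfc with the length of the longest transcript, 8 reversed and 1 became stronger, Nrp2 between genotypes under vehicle with no filter (-0.291). Of the counts of genes called, 37 stayed within 1.5 times the reported count and 12 moved. The order of the 9 levels was kept with raw library totals and with the length of the longest transcript. Vegfc, Pgf and Flt4 had the lowest counts of the members.

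With no filter on low counts, the genes called numbered 35 for evacetrapib over all mice, 9 in CETPtg and 88 in APPtg/CETPtg mice, 29 for the difference between genotypes, 16 with the endothelial score and 69 with the choroid plexus score. With at least 10 counts in every mouse, 8 genes were called with the choroid plexus score. The Wald test of DESeq2 called 59 genes for evacetrapib over all mice, 73 in APPtg/CETPtg mice, 2 for the difference between genotypes and 1135 between genotypes under evacetrapib. Without a genotype term, 1 gene was called for evacetrapib over all mice. The replicate block, chosen after seeing the data, gave 3 genes for evacetrapib over all mice, 0 for the difference between genotypes and 3227 between genotypes.

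The difference of the evacetrapib effect reversed for Flt4, to -0.003 with size factors, -0.013 with no filter, -0.003 with DESeq2 and -0.011 with limma-voom, and for Vegfa (-0.001) and Vegfb (-0.002) with no filter. The genotype value of Kdr under evacetrapib was -0.004 with limma-voom. The choroid plexus slope of Flt1 was -0.005 with at least 10 counts in every mouse.

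With each mouse left out in turn, the genes called ran from 0 to 8 for evacetrapib over all mice, 0 to 14 in APPtg/CETPtg mice, 0 to 1 for the difference between genotypes, 909 to 1998 between genotypes under vehicle, 91 to 858 under evacetrapib, 0 to 4 with the endothelial score and 11 to 86 with the choroid plexus score. Evacetrapib values that changed sign were those of Nrp1 over all mice (-0.062 to 0.120), of Vegfa (-0.042 to 0.109), Vegfb (-0.016 to 0.037) and Nrp1 (-0.008 to 0.098) in CETPtg mice, and of Vegfa (-0.024 to 0.136) and Nrp1 (-0.185 to 0.225) in APPtg/CETPtg mice. So did the difference of the evacetrapib effect for Vegfa (-0.076 to 0.103), Vegfb (-0.019 to 0.047), Flt1 (-0.025 to 0.113), Flt4 (-0.070 to 0.120) and Nrp1 (-0.224 to 0.190), the genotype values of Pgf (-0.004 to 0.079), of Nrp1 under vehicle (-0.302 to 0.113) and of Vegfa (-0.024 to 0.165), Kdr (-0.065 to 0.109) and Nrp2 (-0.075 to 0.102) under evacetrapib, the endothelial slopes of Vegfb (-0.008 to 0.010), Vegfc (-0.019 to 0.035) and Nrp1 (-0.048 to 0.048), and the choroid plexus slopes of Vegfa (-0.032 to 0.005), Pgf (-0.016 to 0.043), Flt1 (-0.038 to 0.032), Kdr (-0.037 to 0.062) and Nrp1 (-0.080 to 0.081). The lower counts with a mouse left out come with fewer samples. For the other changes the cause was not tested.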
